A study of Drosophila melanogaster with 23 samples.

Results

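The genes described here encode the proteins of the cytosolic ribosome of Drosophila melanogaster, with the duplicate genes that some of them have. They were taken by symbol, as every gene named RpL, RpS or RpLP with a number together with sta (stubarista, the gene of ribosomal protein SA), which gave 93 of the 17104 genes in the count tables. Of these, 66 were single-copy genes: 37 of the large subunit, 25 of the small subunit, 2 of the acidic stalk and 2 that encode a ribosomal protein fused to ubiquitin. The other 27 were 14 duplicates named with a, b or -like and their partner genes. Hearts were dissected and sequenced in bulk in 23 libraries of 5 groups: the control strain w1118 at 1 week (n = 4) and 5 weeks of age (n = 4), the control strain attp2 at 1 week (n = 5) and 5 weeks (n = 5), and 1-week flies that express an RNAi against Lamin C from the promoter of the cardiac transcription factor gene Hand (n = 5). The design sets young against old hearts in w1118, looks for age changes that both control strains share, and asks which of them ageing has in common with the knockdown of Lamin C.

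A ribosome holds one copy of nearly every ribosomal protein, so cells keep the transcripts of these genes at similar levels and adjust them together, in step with ribosomal RNA synthesis and growth signals such as the TOR pathway. Ribosomal protein transcripts are among the most abundant of any cell, and loss of one gene copy in the fly gives the Minute phenotype of slow growth and thin bristles. Several fly ribosomal protein genes have a duplicate that is used mainly in the germline, such as RpS5b and RpS19b in the ovary and RpL22-like in the testis. RpL24-like and RpLP0-like are named for their similarity to ribosomal proteins but are relatives of yeast ribosome assembly factors.

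Library depth ran from 21.8 to 90.0 M counts (M, 1e6), lowest in w1118 5-week library 1. Lamin C transcript in the libraries labelled LamC RNAi differed from attp2 at 1 week by a log2 fold change of −0.20 ± 0.20 (SE), edgeR adjusted p = 0.628, so the target gene did not pass the test. A list of 11 heart genes held Hand, tin, H15, mid, prc, Doc1, Doc2, Doc3, svp, Sur and the muscle myosin gene Mhc. Mhc is not particular to the heart. Doc2 and prc were near 0 and stayed at or below 0.143 and 1.91 CPM in every library (CPM, counts per 1e6 counts after TMM scaling between libraries of a table). Transcripts of other tissues stood apart in some libraries. The summed level of 16 gut genes, mostly of digestive enzymes, was 12524 CPM in attp2 1-week library 3 and 18765 CPM in attp2 5-week library 3. It was 908 CPM in attp2 5-week library 4 and 707 CPM in LamC RNAi library 3. These 4 libraries, those above 700 CPM by a cut set after the values were seen, are called here the libraries that held gut transcripts. The median of the attp2 1-week group was 66.2 CPM. The summed level of 20 ovary and egg genes was 808 CPM in LamC RNAi library 3, against 72.3 to 86.6 CPM in the other 4 of that group. The labels do not say that the libraries of a group came from separate animals, so the spread behind each p-value may be technical, and in bulk tissue fewer cells of a type cannot be told apart from less RNA per cell.

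Ribosomal protein genes took 9.95% ± 0.436 of all counts in w1118 at 1 week (SD, n = 4) and 8.86% ± 0.834 at 5 weeks (n = 4). In attp2 they took 8.73% ± 0.704 at 1 week and 8.65% ± 0.477 at 5 weeks, and in the LamC RNAi libraries 9.41% ± 0.912 (n = 5 each). The lowest share, 7.96%, was that of attp2 1-week library 3, and the highest, 10.6%, that of w1118 1-week library 4. The ranges overlapped between the ages of each strain and between LamC RNAi and either attp2 age.

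Levels of the single-copy genes relative to each other were compared per length, as CPM per kilobase of transcript averaged over the libraries. The median of the 66 genes was 1555 CPM per kb, with quartiles of 1329 and 1816 CPM per kb and a ratio of 10.2 between the highest and the lowest. At the top stood RpL41, which encodes the shortest of the ribosomal proteins, at 4266 CPM per kb, followed by the stalk protein gene RpLP1 at 2660 and RpL27A at 2182 CPM per kb. At the bottom stood RpL38 at 420.1, RpS21 at 746.8 and RpS27 at 864.3 CPM per kb. RpL38 was also the lowest single-copy gene by CPM in each of the 5 groups, with means from 227.0 ± 21.1 CPM in attp2 at 1 week to 371.9 ± 51.0 in w1118 at 5 weeks. Within a group the single-copy genes were steady: the median coefficient of variation was between 6.69% and 9.42%. The least steady single-copy gene in w1118 was RpL39, whose coefficient of variation reached 30.7% at 1 week, with 551, 521, 508 and 907 CPM in libraries 1 to 4.

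In w1118 most ribosomal protein genes were slightly lower at 5 weeks than at 1 week, but of the 86 tested 0 passed the test in that direction (edgeR adjusted p under 0.05; of all genes 3.70% were lower and 8.91% were called in either direction). The single-copy genes had a median log2 fold change of −0.15, with 62 of 66 below 0, while the median of all genes was 0.01. By unadjusted p under 0.05 there were 11 members, and DESeq2 called 8 lower and 1 higher (all genes by DESeq2, 16.4% in either direction). Groups did not overlap for 11 of the 86 (all genes, 17.3%).

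The gene with the lowest log2 fold change among the single-copy genes in w1118 was sta, whose protein sits on the small subunit and is related to the laminin receptor. Its level was 1861, 2020, 2089 and 2098 CPM at 1 week and 1690, 1544, 1537 and 1577 CPM at 5 weeks. Every 5-week library was below every 1-week library. The log2 fold change was −0.35 ± 0.11 (SE), edgeR adjusted p = 0.0738, and DESeq2 gave an adjusted p of 0.000977.

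One member rose in w1118 (all genes, 5.21% higher): RpS5b, the ovarian duplicate of the small-subunit gene RpS5a, encoded on chromosome 3R from 14900432 to 14901563. Its level was 0.394, 0.389, 0.492 and 1.41 CPM at 1 week and 4.28, 33.8, 5.14 and 1.88 CPM at 5 weeks. All 5-week libraries lay above all 1-week libraries, and library 2 lay far above the other 3. The log2 fold change was 4.15 ± 0.92 (SE), edgeR adjusted p = 0.0228. The call was lost without 1-week library 1, 2 or 3 (adjusted p = 0.0653, 0.0833 and 0.0639), and without 5-week library 2 the log2 fold change was 2.52 (adjusted p = 0.0342).

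RpS5b also varied widely between libraries of the other groups. It stood at 0.596, 1.12, 4.50, 11.6 and 9.47 CPM in attp2 at 1 week and at 1.14, 2.85, 6.55, 16.4 and 3.27 CPM at 5 weeks. These ranges overlapped, and libraries of both ages exceeded 3 of the 4 w1118 5-week libraries. In the LamC RNAi libraries it stood at 0.704, 0.363, 186, 1.35 and 1.80 CPM, so that library 3 alone set the group mean of 38.1 ± 82.8 CPM. The log2 fold change against attp2 at 1 week was 2.80 with all libraries and −2.36 without library 3, neither past the threshold. RpS5a, the partner, was between 1163 and 1742 CPM in every library.

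Some libraries with much RpS5b also held transcripts of the female germline. In LamC RNAi library 3 osk (oskar, a determinant of the egg's posterior) stood at 265 CPM, zpg at 47.7, piwi at 49.8 and otu at 46.5 CPM, whereas osk was between 0.335 and 1.74 CPM in the other 4. In w1118 5-week library 2 osk stood at 18.04 CPM, vas at 6.92 and piwi at 6.90 CPM. The library with the most RpS5b was also the one with the most osk in 4 of the 5 groups, w1118 at 1 week (library 4, osk 0.961 CPM) among them. In attp2 at 1 week the most RpS5b was in library 4 (osk 7.41 CPM) and the most osk in library 5 (10.3 CPM). Of the 20 ovary and egg genes, 14 could be tested with age in w1118 (median log2 fold change 1.86, with 0 higher and 1 lower, all genes 5.21% and 3.70%). In w1118 their summed level ran from 93.3 to 135 CPM at 1 week and from 88.3 to 141 CPM at 5 weeks. In w1118 1-week library 1, the highest at that age, grk gave 110 CPM of this sum and osk 0.323 CPM. The sum did not follow RpS5b in every group: w1118 1-week library 4, with the most RpS5b at that age, had the lowest sum, 93.3 CPM. In attp2 at 1 week the highest sum, 247 CPM, was in library 3, and libraries 4 and 5, with the most RpS5b, summed to 80.8 and 91.9 CPM. In attp2 at 5 weeks it ran from 49.0 to 243 CPM. The part of germline tissue in the level of RpS5b was not tested.

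**Figure D1:**
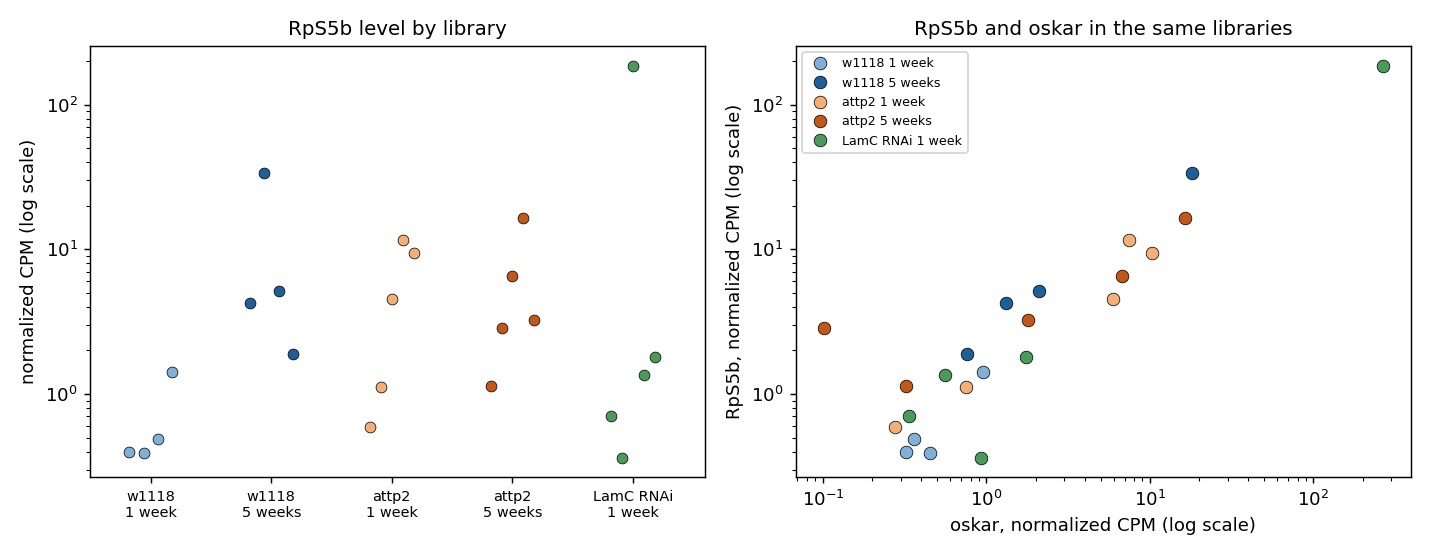
RpS5b level in each of the 23 libraries by group (left) and against oskar in the same libraries (right), both in normalized CPM on log axes, 1 point per library. RpS5b spans 0.363 to 186 CPM, and RpS5b is highest in the library with the most oskar, 265 CPM; attp2 5-week library 2, with 2.85 CPM of RpS5b and 0.101 CPM of oskar, lies off the trend of the others.

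In attp2 the median change of ribosomal protein genes with age was close to that in w1118, and 22 members passed the test (all genes, 20.1%). Of the 85 tested, 21 were lower at 5 weeks (all genes, 10.5% lower) and 1 was higher (all genes, 9.60% higher). The single-copy genes had a median log2 fold change of −0.17, with 59 of 66 below 0, while the median of all genes was 0.03. Those lower were 13 genes of the large subunit, 7 of the small subunit and 1 of the stalk. Groups failed to overlap for 8 of 85, below the share of all genes (17.1%). The number of lower members was 11, 10 and 13 without 1-week library 1, 2 or 4 (all genes in either direction, 16.6%, 15.8% and 15.6%). It was 38, 11, 11 and 10 without 5-week library 2, 3, 4 or 5 (all genes, 20.7%, 16.9%, 17.4% and 14.5%). Without the 4 libraries that held gut transcripts, 5-week libraries 3 and 4 among them, 2 were lower (all genes in either direction, 15.3%). The single-copy median was then −0.14. The number of higher members was 2 without 5-week library 3.

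RpL22, a large-subunit protein that lies on the surface of the ribosome, fell most. The gene lies on chromosome X from 762560 to 765130. Its level was 657, 696, 654, 628 and 566.5 CPM at 1 week and 459, 448, 354, 426 and 414 CPM at 5 weeks. The highest 5-week library was below the lowest 1-week library. The log2 fold change was −0.61 ± 0.10 (SE), edgeR adjusted p = 0.000857. In w1118 RpL22 stood at 593, 658, 600.5 and 837 CPM at 1 week and at 647, 396, 457 and 527 CPM at 5 weeks. There only 5-week library 1 reached into the 1-week range, and the log2 fold change of −0.41 ± 0.18 (SE) did not pass the test (edgeR adjusted p = 0.174). RpL22-like, its testis duplicate, had 0 counts in all 23 libraries, where 3 counts would correspond to 0.0333 to 0.138 CPM.

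RpL4, which lines the exit tunnel of the large subunit, fell from 2209, 2172, 2017, 2061 and 1872 CPM to 1618, 1817, 1420, 1438 and 1430 CPM in attp2. All 5-week libraries were lower than all 1-week libraries, with a log2 fold change of −0.42 ± 0.08 (SE) and an edgeR adjusted p of 0.00332. RpL3, at the peptidyl transferase centre, fell from 2578 ± 176 CPM to 1986 ± 246 (SD, n = 5; log2 fold change −0.38). RpL5, a partner of the 5S ribosomal RNA, fell from 2421 ± 186 to 1911 ± 130 CPM (−0.34). RpL23A, which lies at the tunnel exit, fell from 1824 ± 129 to 1442 ± 127 CPM (−0.34), and RpS4 of the small subunit from 1831 ± 134 to 1460 ± 124 CPM (−0.33). In w1118 the log2 fold changes of these genes were −0.31 for RpL4, −0.30 for RpL3, −0.29 for RpS4, −0.26 for RpL23A and −0.14 for RpL5, none past the threshold.

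RpL38, the least abundant single-copy gene, went the other way. The large-subunit protein it encodes is known from the mouse for its effect on the translation of Hox messenger RNAs. The gene lies on chromosome 2R from 4515388 to 4516458. In attp2 its level rose from 234, 253.5, 197, 216 and 233 CPM at 1 week to 301, 315, 267, 266 and 307 CPM at 5 weeks. The 5-week values all exceeded the 1-week values, and the log2 fold change was 0.36 ± 0.08 (SE), edgeR adjusted p = 0.00776. In w1118 it was at 323, 303, 327 and 390 CPM at 1 week and at 382, 440.1, 332 and 334 CPM at 5 weeks, groups that overlap, with a log2 fold change of 0.15 ± 0.14 (SE). RpL22, RpL4 and RpL38 passed the test in attp2 under all 24 alternatives of the analysis, among them the one without the 4 libraries that held gut transcripts.

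**Figure D2:**
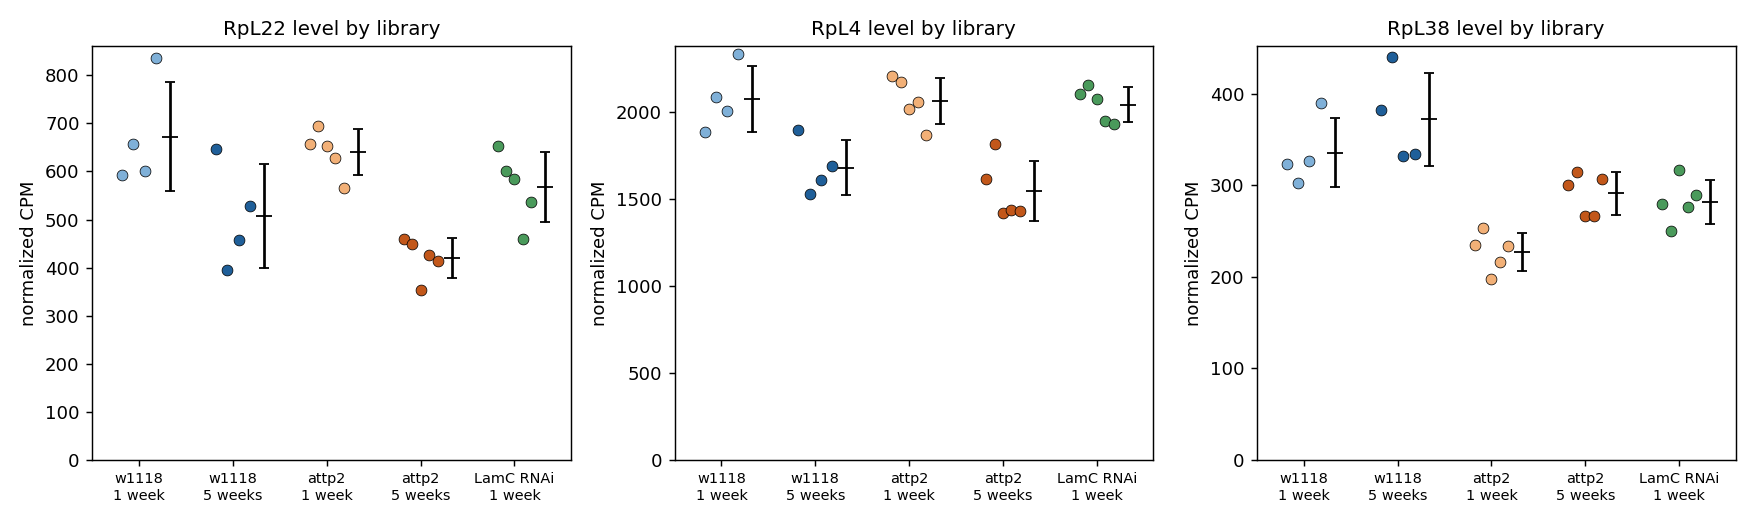
Levels of RpL22, RpL4 and RpL38 in normalized CPM (vertical axes from 0), 1 point per library in each of the 5 groups, with the mean and SD of the group beside the points. In attp2 RpL22 and RpL4 are lower and RpL38 is higher in every 5-week library than in any 1-week library.

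No ribosomal protein gene passed the test of a difference between the strains in its response to age. Of 86 members in the interaction test, which used the 18 control libraries, 0 were called by edgeR and 0 by DESeq2 (all genes by edgeR, 0.761%, with 0.279% higher and 0.481% lower in attp2), and 2 had an unadjusted p under 0.05. Those were RpLP0-like at 0.46 and RpS5b at −3.92, as log2 fold changes of attp2 relative to w1118. The 95% interval of the difference ran from −0.58 to 0.23 for RpL22 and from −0.08 to 0.55 for RpL38. The median difference of the single-copy genes was 0.00. Strain cannot be told apart from table here, since each strain was deposited in a table of its own.

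The size of the age effect in attp2 varied with transcript length. Over the 66 single-copy genes the log2 fold change and the length had a Spearman correlation of −0.59 in attp2 and −0.38 in w1118, given as a description across genes that share libraries. Over other genes it was −0.15 (n = 9395) and −0.18 (n = 9028). The 22 longest single-copy genes, of 798 bases or more, had a median log2 fold change of −0.27 in attp2, and the 22 shortest, of 621 bases or less, −0.10. RpL4 and RpL3, with transcripts of 1400 and 1495 bases, are among the former, and RpL41 with a log2 fold change of 0.05 is among the latter. RNA integrity values were not used here, and the part of RNA quality in this pattern was not tested.

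**Figure D3:**
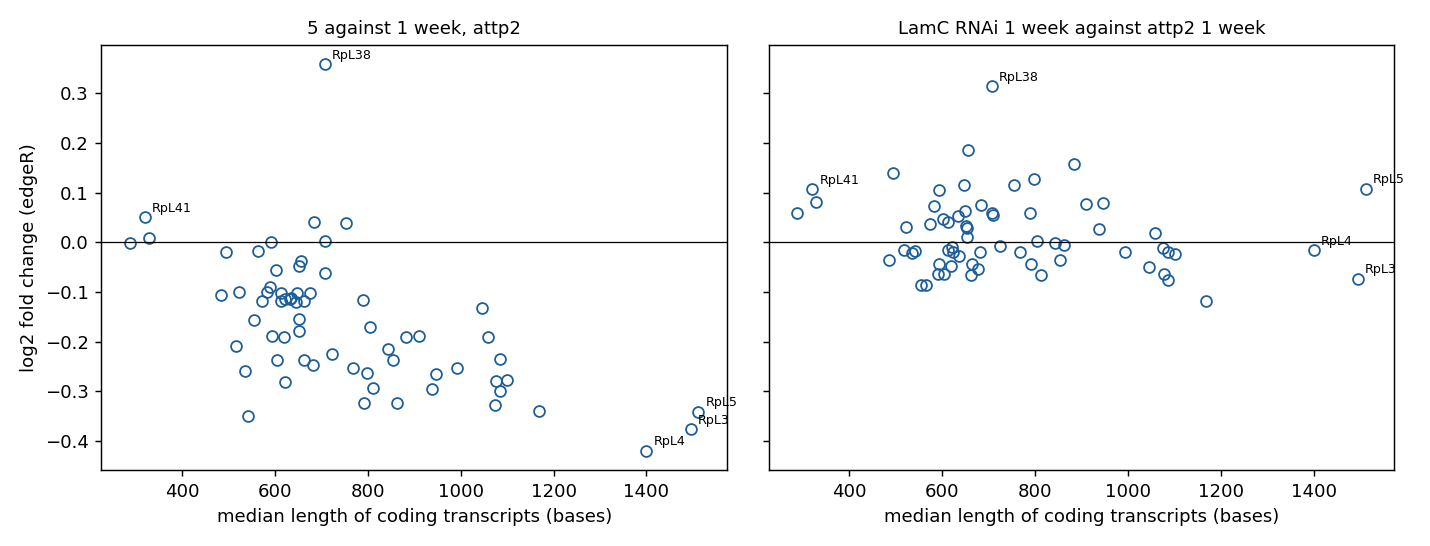
Log2 fold change of the 66 single-copy ribosomal protein genes against the median length of their coding transcripts in bases, for age in attp2 (left) and for LamC RNAi against attp2 at 1 week (right), 1 point per gene. Longer genes lie lower on the left, where the Spearman correlation is −0.59, than on the right, where it is −0.12.

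In the libraries labelled LamC RNAi the ribosomal protein genes showed no common shift from attp2 of the same age. The single-copy genes had a median log2 fold change of −0.01, with 31 of 66 above 0, and the median of all genes was 0.03. Of 85 members, 0 were higher and 1 was lower, with 4 at an unadjusted p under 0.05. Of all genes, 0.866% were higher, 1.54% lower and 2.41% in either direction. DESeq2 called 1 member higher and 1 lower (all genes in either direction, 6.89%). Without LamC RNAi library 2 edgeR also called 1 member higher, RpL38 (all genes in either direction, 2.02%). The groups did not overlap for 1 of 85 (all genes, 5.00%).

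The gene that fell was RpS15Ab, a duplicate of the small-subunit gene RpS15Aa, on chromosome 2R from 10821676 to 10822399. Its level was 29.1, 32.1, 29.9, 33.2 and 29.8 CPM in attp2 at 1 week and 25.1, 22.1, 23.9, 23.9 and 24.8 CPM in the LamC RNAi libraries. The highest RNAi library was below the lowest control. The log2 fold change was −0.36 ± 0.06 (SE), edgeR adjusted p = 0.00928, and it passed the test under all 24 alternatives, with log2 fold changes from −0.38 to −0.33 and adjusted p-values up to 0.0434. RpS15Aa, on chromosome X, differed by 0.01 ± 0.08 (SE) on the log2 scale.

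RpL38 stood at 280, 250, 316, 276 and 289 CPM in the LamC RNAi libraries, between or above the attp2 1-week values. RNAi library 2, at 250 CPM, was the only one below the highest control at 253.5 CPM. The log2 fold change of 0.31 ± 0.08 (SE) gave an edgeR adjusted p of 0.0652 and a DESeq2 adjusted p of 0.0109, and it was 0.22 (edgeR adjusted p = 0.280) without the 4 libraries that held gut transcripts. Without RNAi library 2 the edgeR adjusted p was 0.0483. The same control libraries enter the age comparison, in which RpL38 changed by 0.36. RpL22 differed by −0.17 ± 0.10 (SE) from attp2 at 1 week, edgeR adjusted p = 0.358, where ageing gave −0.61.

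RpL38 lies within 5 Mb of the centromeric end of its chromosome arm, as do 5 other single-copy genes of the large subunit: RpL15, RpL5, RpL21, RpL30 and RpL10. All 6 had a positive log2 fold change in LamC RNAi, from 0.05 to 0.31 with a median of 0.13, and the other 60 had a median of −0.01. None of the 6 passed the test by edgeR. The window was set after the values were seen, and its edge falls between RpL10 at 4.99 Mb and RpS26 at 5.06 Mb. Of 459 other genes in the same windows, 61.4% were above 0, with a median of 0.09, and of all genes 54.5%. With age 2 of the 6 were above 0 in w1118 and 1 of the 6 in attp2, where 61.6% and 62.1% of the other genes in the windows were.

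Against attp2 at 5 weeks, a comparison that differs in both age and RNAi and shares its older libraries with the age comparison, 18 of 85 members were higher in LamC RNAi (all genes, 10.1% higher) and 1 was lower (all genes, 9.15% lower and 19.2% in either direction). The single-copy median was 0.18, with 64 of 66 above 0. The largest were RpL5 at 0.45, RpL22 at 0.43, RpL4 at 0.40, RpL9 at 0.39, RpL15 at 0.35 and RpS2 at 0.34 on the log2 scale. RpL5 had 2608 ± 171 CPM in LamC RNAi and 1911 ± 130 in attp2 at 5 weeks (SD, n = 5 each), and RpL15 had 1286 ± 80.8 and 1012 ± 51.7 CPM. RpS15Ab was the lower one, at −0.51 ± 0.06 (SE), edgeR adjusted p = 0.000114. The number of higher members was 38, 9, 9 and 7 without attp2 5-week library 2, 3, 4 or 5 (all genes in either direction, 20.9%, 15.9%, 16.3% and 14.3%). It was 9, 9 and 10 without LamC RNAi library 1, 2 or 3 (all genes, 17%, 16.1% and 17.4%). Without the 4 libraries that held gut transcripts it was 1 (all genes, 12.9%), and the single-copy median was 0.13.

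**Figure D4:**
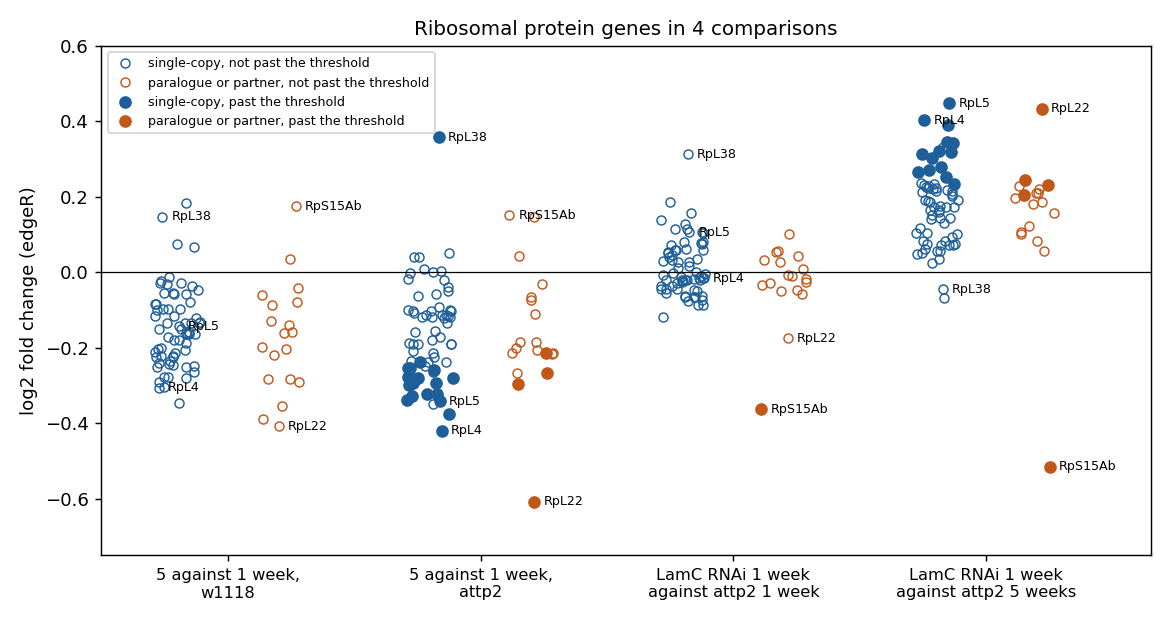
Log2 fold changes of the ribosomal protein genes (vertical axis, edgeR) in 4 comparisons, 1 point per gene, single-copy genes apart from duplicates and their partners; filled points passed the adjusted threshold of 0.05. RpS5b, at 4.15 in w1118 and 2.80 and 2.66 in the LamC RNAi comparisons, lies outside the axis. The single-copy medians are −0.15, −0.17, −0.01 and 0.18 from left to right.

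Expression of the duplicates was weighed against their partners as the percent of the pair's counts. Of the 14 duplicates, 8 stayed below 1 CPM in every group: RpL22-like and RpS28a had 0 counts, RpL10Aa, RpL37b and RpL7-like had at most 2 counts in a library, and RpS10a, RpS19b and RpS28-like had at most 39. Shares of the other 6 pairs were compared in 18 exact two-sided permutation tests with Benjamini-Hochberg adjustment across the 18. The smallest p possible is 0.0286 for 4 against 4 libraries and 0.00794 for 5 against 5. Among the 18, an exact permutation p of 0.0238 had an adjusted p of 0.0857, so no share in w1118 could pass the threshold. Reads of near-identical copies may have been split by the authors' counting in ways that these tables do not show.

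RpS15Ab held a small share of its pair that rose with age in attp2 and was lower in LamC RNAi. Its own level changed with age in attp2 by 0.15 on the log2 scale, not past the threshold. In LamC RNAi against attp2 at 1 week its level changed by −0.36, which passed. The share was 3.04%, 3.31%, 3.47%, 3.59% and 3.72% in attp2 at 1 week, and 4.31%, 4.05%, 3.99%, 5.02% and 4.31% at 5 weeks. In the LamC RNAi libraries it was 2.65%, 2.41%, 2.51%, 2.77% and 3.00%. These 3 groups did not overlap, and both differences from attp2 at 1 week gave an exact permutation p of 0.00794 and an adjusted p of 0.0476. In w1118 the share was 3.40%, 3.49%, 3.47% and 4.57% at 1 week and 4.69%, 3.96%, 5.24% and 4.78% at 5 weeks, where 1-week library 4 lay inside the 5-week range (exact permutation p = 0.0571, adjusted p = 0.129).

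RpLP0-like, the relative of the yeast assembly factor Mrt4, held 1.59% ± 0.0758 of its pair in attp2 at 1 week and 1.98% ± 0.126 at 5 weeks (SD, n = 5 each). The groups did not overlap, and the exact permutation test gave an adjusted p of 0.0476. Its own level was 26.1 ± 2.52 and 26.9 ± 1.71 CPM, while that of the stalk gene RpLP0 was 1608 ± 81.4 and 1336 ± 127 CPM. In w1118 its level was lower at 5 weeks, 26.1 ± 4.07 against 34.2 ± 2.83 CPM (SD, n = 4 each; log2 fold change −0.39, edgeR adjusted p = 0.0902).

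RpL34a held 16.0% ± 0.452 of its pair in attp2 at 1 week and 18.4% ± 1.24 at 5 weeks (exact permutation p = 0.0159, adjusted p = 0.0714). Its own level was 136.0 ± 6.18 and 133.2 ± 8.35 CPM, and that of RpL34b was 717 ± 54.0 and 596 ± 85.6 CPM. RpL24-like, related to the yeast assembly factor Rlp24, held between 11.4% and 14.3% of its pair in the 5 group means, and no test of it passed the threshold. RpS14b, which lies beside its near-identical copy RpS14a, held 28.8% ± 1.15 and 31.0% ± 1.45 of the pair in w1118 at 1 and 5 weeks. It held 22.7% ± 0.399 and 22.6% ± 0.596 in attp2 and 22.2% ± 0.464 in LamC RNAi. No library of the w1118 table, with a lowest value of 27.4%, fell within the range of the attp2 table, with a highest of 23.2%, and strain and table cannot be told apart.

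**Figure D5:**
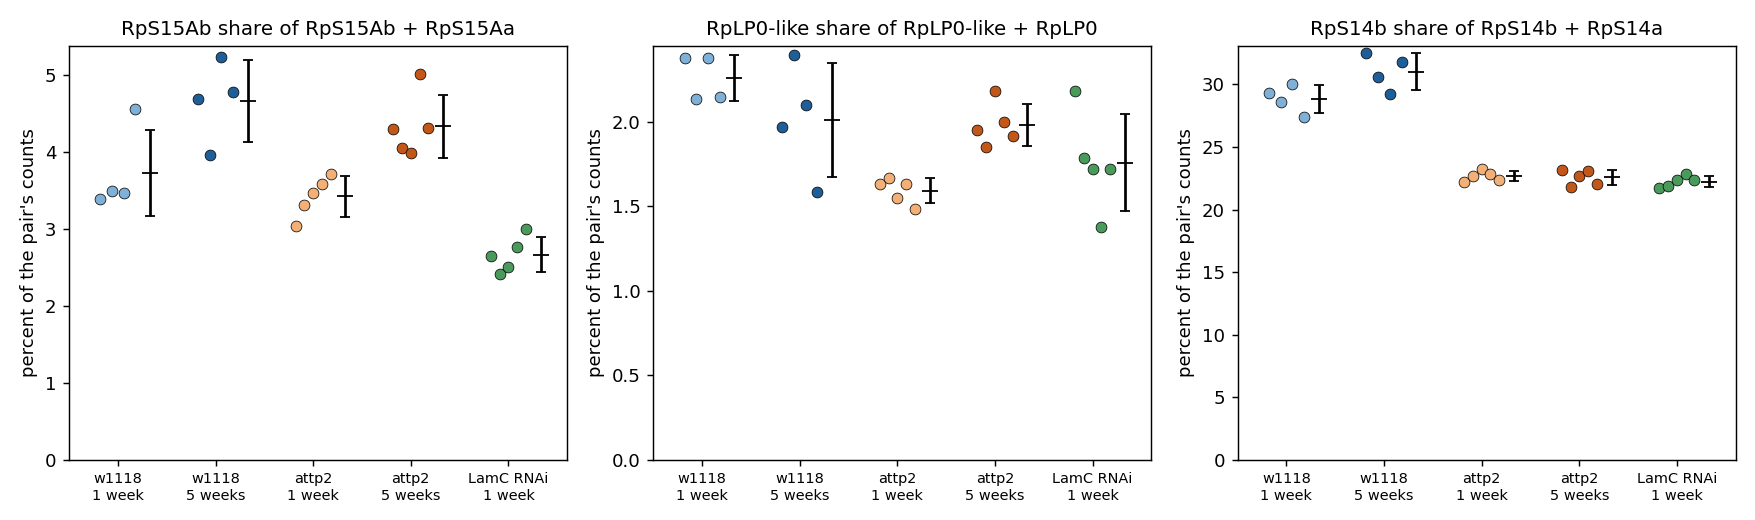
Share of the pair's counts held by RpS15Ab, RpLP0-like and RpS14b in percent (vertical axes from 0), 1 point per library in each of the 5 groups, with the mean and SD beside the points. Among the attp2 and LamC RNAi groups RpS15Ab is lowest in LamC RNAi (2.41% to 3.00%) and highest in attp2 at 5 weeks (3.99% to 5.02%), with attp2 at 1 week between them.

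The wider translation machinery was followed through 3 lists of genes: translation factors (38 tested), ribosome assembly and RNA polymerase I (42) and the growth and stress control of translation (31). With age in attp2, translation factors went both ways, with 7 higher and 9 lower, or 42.1% of the list (all genes, 20.1%). Without the 4 libraries that held gut transcripts 4 were higher and 1 was lower, or 13.2% (all genes, 15.3%). Among those higher were eIF5 (1.10, from a mean of 0.746 CPM at 1 week), eIF6, which keeps free large subunits from joining (0.96), pAbp, the poly(A)-binding protein (0.36), and eIF2beta (0.29), as log2 fold changes. Among those lower were eIF2A (−0.50), the elongation factor gene eEF1alpha1 (−0.35), and eIF3m (−0.27) and eIF3a (−0.26) of the scaffold that loads messenger RNA. Of these 8, eIF6 and eIF2A passed the threshold under all 24 alternatives and eIF5 under all 23 that tested it. The others passed under 18 (eIF3m), 13 (eIF3a), 12 (pAbp), 11 (eIF2beta) and 10 (eEF1alpha1) of 24. In w1118 1 factor was called (all genes, 8.91%), pAbp, at 1915, 1662, 2052 and 1540.0 CPM at 1 week and 2536, 3354, 2379 and 2909 CPM at 5 weeks (log2 fold change 0.64, edgeR adjusted p = 0.0278, past the threshold under 9 of 15 alternatives). In LamC RNAi 0 factors were called against attp2 at 1 week (all genes, 2.41%), by DESeq2 2 (6.89%), and 4 had an unadjusted p under 0.05. Against attp2 at 5 weeks 11 were higher, among them eIF2A (0.52), eEF1beta (0.47), eIF3c (0.39) and eEF1alpha1 (0.37, past the threshold under 15 of 24 alternatives). There eIF6 was lower (−0.63), and 31.6% of the list was called (all genes, 19.2%). Without those 4 libraries 1 was higher and 1 lower, or 5.26% (all genes, 12.9%).

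Of 42 genes of ribosome assembly, 2 passed the test as higher in LamC RNAi than in attp2 at 1 week, or 4.76% (all genes, 2.41%). A positive log2 fold change was found for 41 of 42 (all genes, 54.5%), with a median of 0.46 against 0.03 for all genes. The called genes were Nop10 (CG7637 in the tables), of the ribonucleoprotein that pseudouridylates ribosomal RNA, at 0.74 and bys (bystin), of the small-subunit precursor, at 0.53; they passed under 7 and 8 of 24 alternatives. Bystin stood at 14.98, 14.76, 14.89, 14.05 and 11.54 CPM in attp2 and at 21.9, 20.2, 24.6, 15.7 and 18.8 CPM in LamC RNAi, with no overlap. Of the list, 29 of 42 had an unadjusted p under 0.05 with all libraries, and DESeq2 called 6 (all genes by DESeq2, 6.89%). Without LamC RNAi library 3, the one with ovarian transcripts, the median of the list was 0.29, with 40 of 42 above 0 and 0 called (12 at an unadjusted p under 0.05). Without the 4 libraries that held gut transcripts, this library 3 among them, the median of the list was also 0.29, with 0 called and 6 at an unadjusted p under 0.05. With age in attp2, RIOK1 (0.95) and Tif-IA, the initiation factor of RNA polymerase I (0.70), rose and 0 fell. These 2 were 4.76% of the list, below the share of all genes (20.1%). In w1118 0 were called by edgeR and 1 by DESeq2 (all genes, 8.91% and 16.4%), with 2 at an unadjusted p under 0.05. Against attp2 at 5 weeks 1 of the list was higher in LamC RNAi, Non1 (0.72), or 2.38% (all genes, 19.2%).

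Growth and stress genes changed in both directions in attp2, 6 higher and 6 lower, or 38.7% of the list (all genes, 20.1%). Without the 4 libraries that held gut transcripts 3 were higher and 3 lower, or 19.4% (all genes, 15.3%). Irbp18, the partner of the transcription factor Xrp1 that responds to ribosomal protein loss, stood at 12.3, 11.8, 9.43, 10.2 and 12.7 CPM at 1 week and at 27.5, 21.8, 22.7, 25.7 and 28.9 CPM at 5 weeks. Every older library was above every younger one, with a log2 fold change of 1.17 ± 0.13 (SE), edgeR adjusted p = 4.6e-05. It also rose in w1118 (0.77 ± 0.14, edgeR adjusted p = 0.0107), while Xrp1 itself differed by 0.00 ± 0.19 in attp2 and −0.45 ± 0.17 in w1118, neither past the threshold. Trf2, a core promoter factor of ribosomal protein genes, rose by 0.53 in attp2, crc (the fly ATF4) by 0.42 and RagA-B, which signals amino acids to TOR, by 0.31. Thor (4E-BP) fell by 0.71, Sesn (sestrin) by 0.48, foxo by 0.47 and rictor by 0.42. Of these 8, the calls of Irbp18, Trf2, crc, foxo and rictor held under all 24 alternatives, and those of Sesn, RagA-B and Thor under 23, 20 and 10. In w1118 RagA-B rose by 0.48 and PEK, a kinase that halts initiation under stress, fell by 0.58, calls that held under 12 and 11 of 15 alternatives. In LamC RNAi 0 of the list were called against attp2 at 1 week (all genes, 2.41%), by DESeq2 2 (6.89%), and 5 had an unadjusted p under 0.05. Against attp2 at 5 weeks Sesn (0.57), larp (0.51), foxo (0.42) and raptor (0.23, past the threshold under 12 of 24 alternatives) were the 4 higher, and Irbp18 (−0.72), crc (−0.46), Trf2 (−0.39) and Akt (−0.31) among 6 lower. Together they were 32.3% of the list (all genes, 19.2%).

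Transcripts of other cells moved with age as well. The 13 haemocyte genes summed to 4300 to 4782 CPM in w1118 at 1 week and 2341 to 3394 CPM at 5 weeks, and to 4421 to 5380 and 2052 to 2637 CPM in attp2. In LamC RNAi they summed to 5864 to 8072 CPM. The 11 heart genes, Mhc among them, summed to 3537 to 4377 and 1847 to 2586 CPM in w1118. They summed to 2779 to 3944 and 1617 to 1972 CPM in attp2, and to 2887 to 3576 CPM in LamC RNAi. A sum follows its most abundant genes. Of the 10 heart genes tested with age, 3 were lower in w1118 (median log2 fold change −0.78, all genes 3.70% lower). In attp2 4 of the 10 were lower (median −0.13, all genes 10.5% lower), and 0 were higher in either strain. The 8 genes of body wall and flight muscle summed to 555 to 623 and 333 to 468 CPM in w1118, to 329 to 418 and 229 to 289 CPM in attp2, and to 358 to 447 CPM in LamC RNAi. The 16 gut genes summed to 58.0 to 70.0 CPM at 1 week and 74.6 to 239 CPM at 5 weeks in w1118, without overlap. The 12 fat body and oenocyte genes summed to 198061 to 276878 and 147915 to 210660 CPM in attp2, to 103310 to 172003 and 112907 to 166401 CPM in w1118, and to 136095 to 247093 CPM in LamC RNAi. The 15 testis and male tract genes summed to at most 4.82 CPM in any library. The part of these shifts in the levels of ribosomal protein genes was not tested.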

How the data were processed

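Per the labels' protocols, RNA of isolated hearts was made into stranded, poly(A)-selected libraries. The dm6 genome and the tools STAR, cutadapt and DESeq2 are named per the submitters' processing notes; of their versions and the read counter nothing is stated. The authors deposited raw counts per gene symbol, 1 table of 8 w1118 libraries and 1 of 15 attp2 and LamC RNAi libraries. The authors' deposited log2 values equalled log2 of the count divided by the DESeq2 size factor, plus 1, and were not used further.

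R 4.3.3 and edgeR 4.0.16 gave the main test, a two-sided quasi-likelihood test on counts (filterByExpr, TMM), with Benjamini-Hochberg adjustment over all genes tested and a threshold of 0.05; p-values adjusted over all genes are from this test unless DESeq2 1.42.0 is named. The w1118 libraries had their own fit, the 3 groups of the attp2 table together, and the strain difference of the age effect as an interaction over 18 control libraries. Log2 fold changes carry standard errors; levels are TMM-scaled CPM, mean ± SD over libraries. Per length, levels were divided by the median protein-coding transcript length of the BDGP6 annotation, release 6.54, which gave positions (1-based) for 92 of 93 members. Symbols differing from the tables were matched through RefSeq synonyms. Libraries of a group differed by a chi-square per gene of at least 62.9 in 42 pairs, so none was counted as a copy.

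The members, the gene lists and the rule for named genes were chosen with earlier results of these data known. Named with values were, per comparison, up to 6 called members in each direction, the duplicates at 1 CPM or more with their partners, RpS5a, RpS5b, RpL22, RpL22-like, RpL38 and sta, the 3 highest and 3 lowest single-copy genes per length, and up to 4 called genes per direction of each pathway list. RpL39, the genes near centromeric ends and Xrp1 were named after their values were seen, as were the window of 5 Mb and the minimum of 20 mean counts for a pair test. Deviations of same-numbered libraries of attp2 at 1 week and LamC RNAi correlated at 0.15 to 0.47, and those of attp2 at 1 and 5 weeks at −0.09 to 0.90. The authors' column names give the libraries of attp2 at 1 week and LamC RNAi different letters (b, c, d, e and g against a to e). Any pairing there would thus rest on the values alone. A fit with replicate number as a block left the calls of members in that comparison at 0 higher and 1 lower. The share of 1 of the 6 pairs tested is not reported here. Alternatives were other scalings, filters, DESeq2, the replicate block, only the 2 groups compared and leaving out each library.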

Additional observations from a re-analysis of the deposited data

Results flagged for a closer look

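In 170 groups of values examined (28 member genes, 5 pair shares and the total share, each in 5 groups), 17 held an outlying library. Such a library lay apart from the others of its group by Dixon's test at the 95% level. Chance alone flags about 1 group in 20 where values are normal and independent. These groups share the same 23 libraries, so the number flagged cannot be weighed against that rate. RpS5b accounts for several of the 17. Library 3 of LamC RNAi, with 186 CPM of RpS5b, and w1118 5-week library 2, with 33.8 CPM, stood above their groups, and both held germline transcripts. In w1118 1-week library 4 RpS5b was at 1.41 CPM, above the rest of its group.

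The same w1118 1-week library 4, which had 33.4 M counts and the highest share of ribosomal protein counts of the series, stood above its group for RpL5 (2973 CPM), RpL27A (1654 CPM), RpL34a (163 CPM), RpS15Ab (56.9 CPM), RpS21 (550 CPM) and the share of RpS15Ab in its pair (4.57%). Library 1 of w1118 at 5 weeks, the least deep of the series, stood above its group for RpS21 (538 CPM) and RpS5a (1391 CPM). Library 5 of attp2 at 1 week stood below its group for RpL23A (1600 CPM), RpL34a (125 CPM) and RpL34b (623 CPM), and above it for the share of RpL34a (16.8%). At 5 weeks in attp2, library 2 stood above for RpL34b (744 CPM) and library 3 below for RpS15Ab (30.3 CPM).

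Among the genes of ribosome assembly, Tif-IA differed between strains in its age effect. It rose by 0.70 on the log2 scale in attp2 and by 0.15, not past the threshold, in w1118, and the tested difference was 0.58 ± 0.12 (SE), edgeR adjusted p = 0.0371. The adjusted p was between 0.00178 and 0.0920 over the alternatives, and 16 of 26 of them put it above the threshold.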

How the results depend on the processing

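Of 119 results, 2080 values were recomputed under other settings, and 1847 of these counted as the same. For a gene this meant the same direction and side of the threshold. For a count of members it meant a change of at most 1.5 times, and for medians and shares a shift below the SD between libraries. Leaving out 1 library cannot move the mean share of a group by that much, so those values were the same by construction. Counts of members past the threshold moved most. In w1118 DESeq2 called 8 lower (all genes in either direction, 16.4%), and with a filter at 5 CPM 0 were higher, since RpS5b was not tested. In attp2 with age, 40 were lower with DESeq2 (all genes in either direction, 25.3%), 11 with no filter (11.8%) and 2 (15.3%) without the 4 libraries that held gut transcripts, an alternative chosen after seeing the data. Against attp2 at 5 weeks, 36 were higher in LamC RNAi with DESeq2 (25.4%), 10 with no filter (11.2%), 5 with only the 2 groups in the fit (15.3%) and 1 without those 4 libraries (12.9%). DESeq2 called 1 higher in LamC RNAi against attp2 at 1 week (6.89%). The causes were not tested.

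With 1 library left out, members called ranged from 0 to 1 higher in w1118, from 10 to 38 lower and 1 to 2 higher in attp2, from 0 to 1 higher in LamC RNAi against attp2 at 1 week and from 7 to 38 higher against 5 weeks. The share of all genes called ranged from 3.02% to 11% in w1118 and from 14.5% to 22.2% in attp2. For LamC RNAi it ranged from 1.01% to 3.86% against 1 week and from 14.3% to 20.9% against 5 weeks. RpS5b ranged from −0.66 to 0.62 for age in attp2, from −2.36 to 3.28 for LamC RNAi against 1 week and from −2.50 to 3.47 against 5 weeks on the log2 scale; sta ranged from −0.067 to 0.036 for LamC RNAi against 1 week. Without the 4 libraries with gut transcripts RpS5b was at −1.23, −2.41 and −1.18 in these 3 comparisons. Single-copy medians ranged from −0.24 to −0.10 in w1118 and from −0.21 to −0.14 in attp2 with 1 library left out. Without the 4 libraries with gut transcripts the single-copy median was −0.14 for age in attp2 and 0.13 for LamC RNAi against 5 weeks.

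With a replicate block, 37 were lower with age in attp2 and 37 higher in LamC RNAi against 5 weeks. Of all genes, 23.3% and 23.8% were then called in either direction. Same-number correlations for age in attp2 were 0.52, 0.43, 0.90, −0.09 and 0.48 for libraries 1 to 5. For LamC RNAi against 5 weeks they were 0.32, 0.37, 0.45, −0.08 and 0.19. In w1118 they were 0.18, −0.03, −0.08 and 0.27 for libraries 1 to 4. Whether same-numbered libraries were prepared together was not tested. RpS5b was at −0.16 and −0.41 in LamC RNAi against 1 and 5 weeks under the block, and no other count of members moved by over 1.5 times.

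Without Cyp4g1, an abundant oenocyte transcript, in the total, the members' share was 10.9% and 9.65% in w1118 at 1 and 5 weeks, 10.2% and 9.95% in attp2 and 10.5% in LamC RNAi. Depth limits mainly the rare duplicates, such as those with a few counts in a library.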
